A study of Mus musculus with 8 samples.

Results

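The arms of the miR-188, miR-362, miR-500, miR-501 and miR-532 hairpins were examined in mouse C3H10T1/2 cells after induction with Indian hedgehog protein. Members were taken by name, as every mouse miRNA on the array called miR-188, miR-362, miR-500, miR-501, miR-532 or miR-660 with a 5p or 3p arm. The array held 9 such arms among its 611 mouse miRNAs. The cluster itself was chosen by a measured value, the wide difference of miR-188-5p between replicates in an earlier look at the same arrays, so the levels of miR-188-5p are given as a description, without a test.

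C3H10T1/2 is an established mesenchymal cell line from mouse embryos that responds to hedgehog proteins and can form cartilage, bone and fat cells. Cells of the WT group were incubated for 48 h with 750 nM of the recombinant amino-terminal part of Indian hedgehog (IhhN), and cells of the MT group with the same dose of its E95K mutant, which is linked to shortened fingers in brachydactyly type A1. Cells of the control group were labelled as not induced by protein, although their source label also carries the dose. Each group had 2 RNA samples (n = 2), and each WT sample was hybridized on 2 arrays, so that 4 WT, 2 MT and 2 control arrays filled 1 slide. The labels do not say that the 2 samples of a group came from separate cultures, so SDs and p-values measure the spread between these samples, which may be technical. Of 11 array entries for mesenchymal miRNAs, 6 were detected on all 8 arrays and 2 on none, while none of the entries for blood, muscle, epithelium, liver, embryonic stem cells or endothelium was detected on any. Among the 6 entries for neurons, miR-128-3p was detected on some arrays.

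A miRNA gene is transcribed as a hairpin that is cut into a short duplex, and the strand kept from either arm guides silencing of mRNAs that pair with its seed, bases 2 to 8. The cluster lies within Clcn5, the gene of a chloride and proton exchanger, and miRNAs inside a host gene are often made from the transcript of that gene. miR-188 is known for favouring fat over bone formation in bone marrow stromal cells. Hairpins that share a transcript can still give very unequal amounts of mature miRNA, since each is cut and each arm is kept or degraded on its own.

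In RefSeq (GRCm38.p6), all 5 hairpins lay on the minus strand of chromosome X inside Clcn5, within 10815 bases. In the direction of transcription the order was Mir532 (chrX:7248402-7248497), Mir188 (chrX:7247989-7248056), Mir362 (chrX:7241982-7242046), Mir501 (chrX:7241243-7241351) and Mir500 (chrX:7237683-7237774). The gap between Mir532 and Mir188 was 345 bases, that between Mir188 and Mir362 was 5942 bases, that between Mir362 and Mir501 was 630 bases and that between Mir501 and Mir500 was 3468 bases. Mature sequences of 8 arms were taken from RefSeq and mmu-miR-532-5p is named only. They are shown because the pattern in these cells was a difference between arms, with the seed in capitals, first for the 2 arms that were detected and then for the other 6:
mmu-miR-188-5p: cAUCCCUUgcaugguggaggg
mmu-miR-500-3p: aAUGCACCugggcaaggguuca
mmu-miR-188-3p: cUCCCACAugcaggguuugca
mmu-miR-501-3p: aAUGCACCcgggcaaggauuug
mmu-miR-501-5p: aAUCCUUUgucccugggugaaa
mmu-miR-362-3p: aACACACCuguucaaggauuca
mmu-miR-362-5p: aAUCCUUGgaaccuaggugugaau
mmu-miR-532-3p: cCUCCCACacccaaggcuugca

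The 8 sequences had 7 different seeds. miR-500-3p and miR-501-3p shared the seed AUGCACC and differed at 4 of 22 positions, U9C, G18A, C21U and A22G, written from miR-500-3p to miR-501-3p and counted from the 5′ end. Among all mouse miRNAs on the array with a RefSeq sequence, miR-329-3p shared the seed of miR-362-3p, and it was detected on no array. The other 5 seeds were found in no other mouse miRNA of the array that had a sequence. The positions of the detected arms in their hairpins are given here in capitals, the 5p arm in Mir188 and the 3p arm in Mir500:
Mir188: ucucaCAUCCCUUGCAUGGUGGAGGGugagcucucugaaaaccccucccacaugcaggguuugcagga
Mir500: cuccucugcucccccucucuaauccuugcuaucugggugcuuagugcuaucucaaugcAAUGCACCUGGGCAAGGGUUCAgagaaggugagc

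Of the 9 arms, miR-500-3p was detected on all 8 arrays, miR-188-5p on 7 and the other 7 arms on none. A probe counted as detected on an array where over 50% of its spots were marked by the scanner software, Feature Extraction, as well above background, and a miRNA where any of its probes was. The 2 arms thus made up the detected part of the cluster, and neither miR-362-3p nor miR-532-5p was detected in WT, MT or control cells. Over the whole array, 103 of the 611 mouse miRNAs were detected on all arrays and 449 on none, so most mouse miRNAs of the array were undetected too. Each arm had 20 spots on an array, from 2 to 4 probes, which gave 180 cluster spots per array and 1440 in all.

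**Figure D1:**
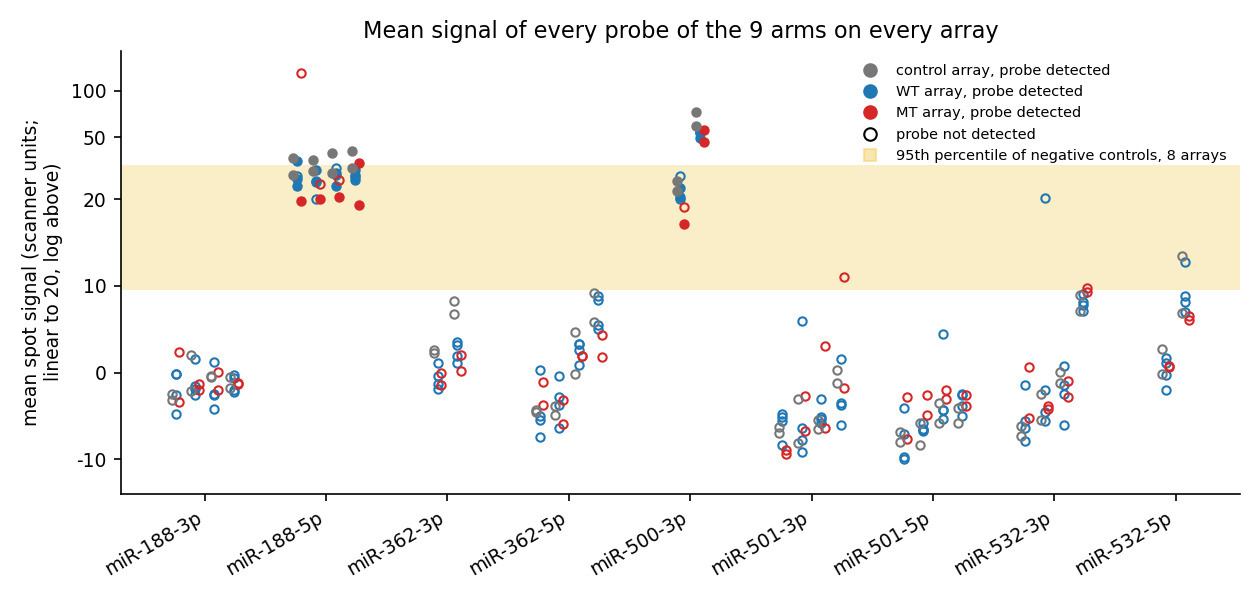
Mean signal of the kept spots of each probe (scanner units, linear to 20 and logarithmic above) for the 9 arms, 1 point per probe and array, coloured by group and filled where the probe was detected; the band spans the 95th percentile of 434 negative control spots on the 8 arrays, 9.51 to 33.1. The filled points belong to miR-188-5p and miR-500-3p, and the lone high open point of miR-188-5p is its probe A_54_P2361 on the array of MT replicate 1, at 129.

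Both arms of a hairpin could be compared for Mir188, Mir362, Mir501 and Mir532. At Mir188, 83.1% of the 160 spots of the 5p arm lay above the 95th percentile of the negative control spots of their array, against 0.625% of the 160 spots of the 3p arm. The probe means of miR-188-3p ran from -4.75 to 2.42 units over all arrays. The 5p arm was therefore the detected arm of Mir188, and the 3p arm stayed at the level of spots without a target. A share of 5% is what the definition sets for the negative control spots themselves.

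The remaining arms were near that level. The share of spots above the negative control percentile was 2.5% for miR-362-3p, 4.38% for miR-362-5p, 2.5% for miR-501-3p, 3.12% for miR-501-5p and 6.25% for miR-532-3p. It was 11.9% for miR-532-5p, the arm nearest to detection. Its spots above the percentile belonged mostly to 1 of its 2 probes, A_54_P2783, with 21.2% of 80 spots and array means of 6.04 to 13.5 units, while the other, A_54_P2782, had 2.5% and means of -2.02 to 2.68.

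On the array of control replicate 1, 7 of 10 spots of A_54_P2783 lay above the percentile, and Feature Extraction's own rule called miR-532-5p detected on that array and on no other. The total gene signal it gave there was 79.4 units, while the totals of its 2 probes were 1.78 and 8.93. On that array the total gene signal differed from the sum of the probe totals, by over 2% and 0.05 units, for 51 of the 177 mouse miRNAs that Feature Extraction called detected. A difference of miR-532-5p between the groups was not measurable at this signal, and no fold is given.

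For miR-362-3p the probe A_54_P2676 had kept-spot means of 8.32 and 6.78 units on the control arrays, 1.94, 1.05, 3.56 and 3.2 on the WT arrays and 0.232 and 2 on the MT arrays. The control values were the highest, but the probe was detected on no array and the values lay below the negative control percentile of their arrays, which was 12 and 12.4 on the control arrays. Only a bound is available for such a probe and the ratio of 2 undetected levels has no meaning. Among the 1120 spots of the 7 undetected arms, 16 were marked well above background, and 15 of these were marked as outliers or lay far above the other spots of their probe.

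miR-188-5p had 4 probes of 5 spots each. The 5 spots of A_54_P2361 on the array of MT replicate 1 read 15.6, 20.5, 26.8, 171 and 411 units. The other 3 probes on that array had means of 25.1 ± 6.12, 26.7 ± 7.06 and 34.2 ± 5.39 units (SD over 5 spots). Thus 18 of the 20 spots of miR-188-5p on that array lay between 15.6 and 42.4, and 2 spots of a single probe lay far above them.

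Those 2 spots were at row 191, column 29, and row 192, column 8, of a grid of 192 rows and 82 columns, at the end of the array. Feature Extraction had marked neither as an outlier, so both entered the mean of the probe, which was 129 ± 171 units (SD over 5 spots) against a median of 26.8. On the other 7 arrays the mean of A_54_P2361 was 28.1, 27.1, 35.1 and 24.3 units in WT, 19.8 in MT replicate 2, and 28.5 and 37.1 in control. No other array had a spot of miR-188-5p so far from its probe's median, by the measure given next.

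**Figure D2:**
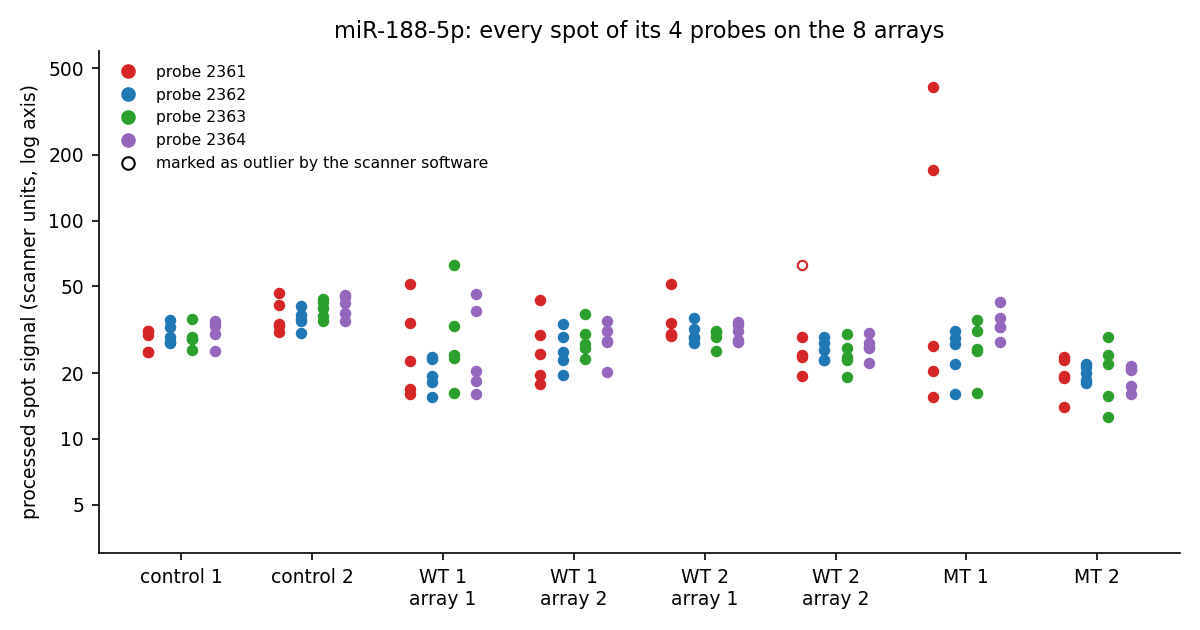
Signal of every spot of the 4 probes of miR-188-5p on each array (scanner units, logarithmic axis), 5 spots per probe and array, with an open circle for the spot marked as an outlier by the scanner software. On the array of MT replicate 1, 2 unmarked spots of probe A_54_P2361 stand at 171 and 411 and the other 18 spots between 15.6 and 42.4.

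A spot was called stray when it lay over 50 units above the median of its probe on the array and over 2 times that median. The array of MT replicate 1 had 274 stray spots among 13000 and the first array of WT replicate 1 had 154, while the other 6 arrays had 11 to 56. Feature Extraction had marked all but 38 of those on MT replicate 1, all but 20 on the first array of WT replicate 1, all but 1 on MT replicate 2 and all of those on the other 5 arrays. In the last 8 rows of the array of MT replicate 1, where the 2 spots of miR-188-5p lay, 26 of 507 spots were stray (5.13%), against 1.99% in its other rows. The 26 include those 2 spots, so the share is a description and not separate evidence about them.

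The cluster held 10 stray spots in all, of which 6 were on the array of MT replicate 1. Besides the 2 of miR-188-5p, these were 2 of miR-501-3p, at 183 and 54.3 units, and 2 of miR-532-5p, at 193 and 228 units, and all of these but the one at 54.3 were marked as outliers and left out. The 3 unmarked stray spots of the cluster were all on this array. The same 2 arrays also had the highest negative control percentiles, 33.1 units on MT replicate 1 and 23.6 on the first array of WT replicate 1, against 9.51 to 12.4 on the others, and detected the fewest mouse miRNAs, 106 and 104, against 117 to 150.

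**Figure D3:**
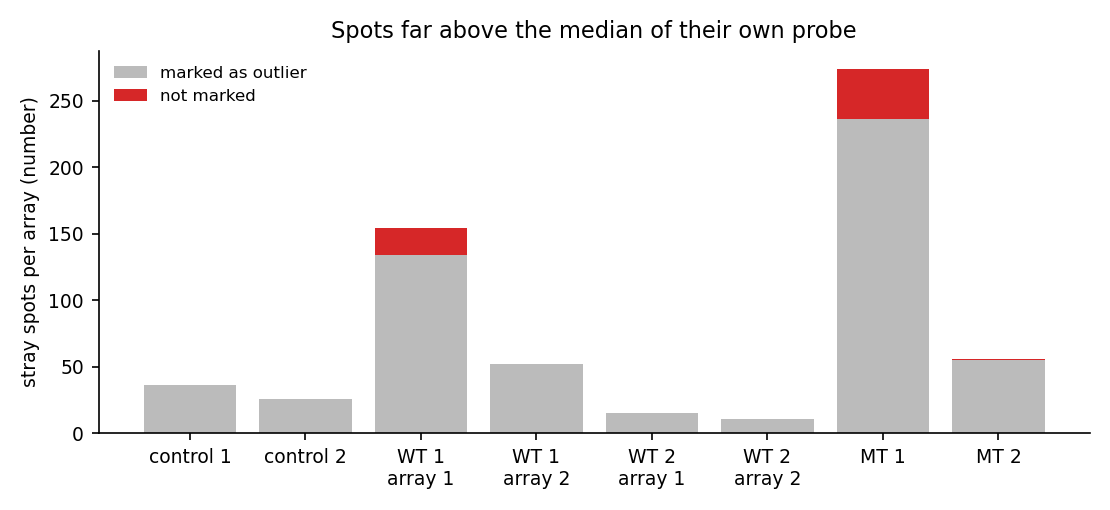
Number of stray spots per array among 13000 spots, as stacked bars from 0, grey where the scanner software marked them as outliers and red where it did not. MT replicate 1 has 274, of which 38 were unmarked, and the first array of WT replicate 1 has 154, of which 20 were unmarked.

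The marks of miR-188-5p followed the same arrays. All 20 of its spots were well above background on both control arrays and on both arrays of WT replicate 2, and 18 of 20 on the array of MT replicate 2. On the second array of WT replicate 1 the number was 16, on the array of MT replicate 1 it was 7 and on the first array of WT replicate 1 it was 4. The array where miR-188-5p was not called detected was thus 1 of the 2 with wide negative controls, and its 4 probe means there, 20.1 to 31.8 units, overlapped those of the other WT arrays, 24.3 to 35.1.

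For comparison between arrays, each array was brought to a common 75th percentile over the 174 probes that all 8 arrays detected, log2 values under a floor of 4.08 were raised to it, and the probe with the highest mean stood for a miRNA. For miR-188-5p this was A_54_P2361. Its scaled signal was 29.8, 29.8, 32.2 and 28.4 units on the 4 WT arrays, 151 and 23.8 on the MT arrays, and 18.8 and 31.7 on the control arrays. MT replicate 1 stood alone, and MT replicate 2 lay between the 2 control replicates.

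On the log2 scale the group means of miR-188-5p were 4.91 ± 0.02 in WT, 5.91 ± 1.89 in MT and 4.61 ± 0.53 in control (SD, n = 2). Each WT value is a mean of 2 arrays and each MT and control value is from a single array, so the SDs are not alike. The values of WT replicate 1 also include its first array, where no probe of miR-188-5p was detected. Between the WT replicates, A_54_P2361, A_54_P2362, A_54_P2363 and A_54_P2364 differed by -0.02, -0.24, 0.23 and 0.03. The arrays of the groups overlapped in all 3 comparisons. The difference of MT from control was 1.30, or 2.46-fold, which was the largest of the 142 miRNAs tested in that comparison. The difference of WT from control was 0.30, but -0.05 when all mouse probes set the scale and -0.02 with the median of a probe's spots. That of WT from MT was -1.0, but -0.22 with the mean of all probes, -0.17 with the median of spots and -0.02 with the stray spots left out.

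The difference between the 2 MT replicates of miR-188-5p was 2.67 on the log2 scale, or 6.35-fold, the largest of all 142 miRNAs, for which the median size was 0.18. The 2 stray spots lay on the single probe that stood for it, which had 2 of 5 spots well above background on the array of MT replicate 1 and so was not detected there. A_54_P2364, with 4 of 5, was the only one of the 4 probes detected on that array, and it differed by 0.79 between the same 2 replicates. A_54_P2362 had 0 and A_54_P2363 had 1 of 5 spots well above background there, so their values of 0.29 and 0.33 rest on signals that were not well above background. With the stray spots left out, A_54_P2364 became the probe with the highest mean and the MT difference was 0.79, which ranked 5 of 142.

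The difference of MT from control shrank with it. It was 0.18 for A_54_P2364, 0.15 when the median of a probe's spots was used, 0.18 with the stray spots left out, and -0.04 without MT replicate 1. With the stray spots left out, the group means of miR-188-5p were 4.91 ± 0.02 in WT, 4.93 ± 0.56 in MT and 4.76 ± 0.53 in control (SD, n = 2), differences within the spread of the MT and of the control replicates.

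**Figure D4:**
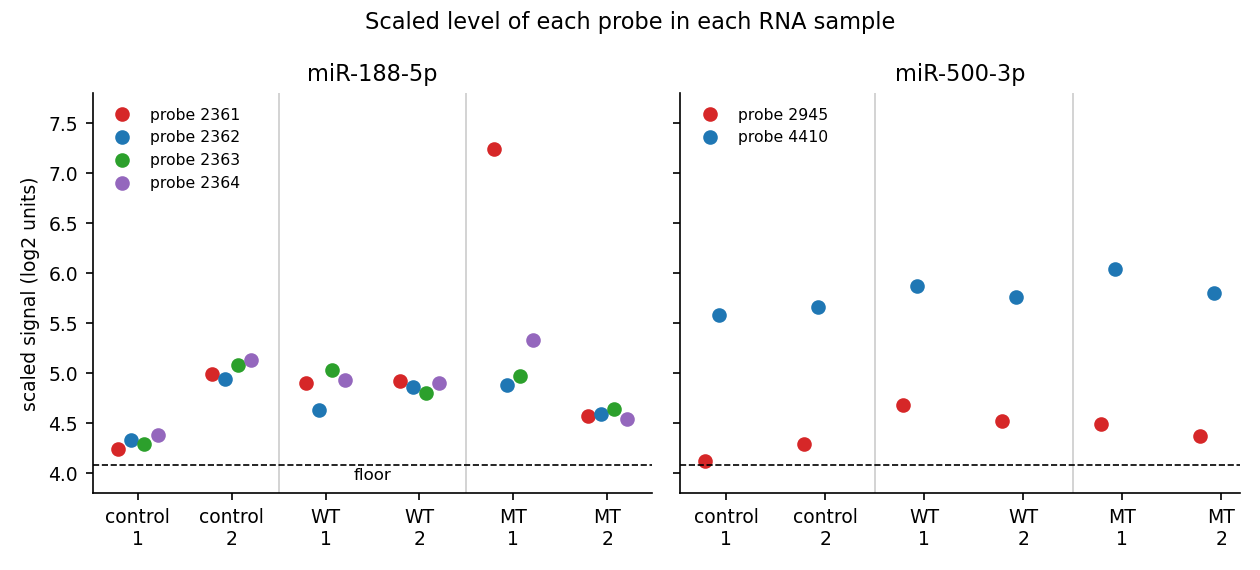
Scaled signal (log2 units) of each probe of miR-188-5p and miR-500-3p in the 6 RNA samples, the 2 arrays of a WT sample averaged, with the floor of 4.08 as a dashed line. In MT replicate 1, A_54_P2361 stands at 7.24 and the other 3 probes of miR-188-5p, of which A_54_P2364 alone was detected there, between 4.88 and 5.33, while all 4 probes are lower in control replicate 1 than in control replicate 2.

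The control replicates of miR-188-5p were also apart, and there the 4 probes moved together. On the log2 scale replicate 1 minus replicate 2 was -0.75, -0.60, -0.79 and -0.75 for A_54_P2361, A_54_P2362, A_54_P2363 and A_54_P2364. No spot of miR-188-5p was stray on either control array, and 40 of 40 were well above background. In control replicate 1 the 4 probes stood at 4.24 to 4.38, close above the floor of 4.08. The difference of -0.75 ranked 8 of 142 in size between the control replicates, where the median size was 0.20.

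Before scaling, the probe means of miR-188-5p were 28.5 to 31.6 units in control replicate 1 and 35.7 to 40.9 in replicate 2, whereas the scaling percentile was higher in replicate 1, 785.2 against 606.1 units. The gap was thus present in the unscaled signal and wider after scaling. Under normexp background correction, which adds an offset of 50 units, the difference between the control replicates was -0.04. Between the WT replicates the difference was -0.02, and between the 2 arrays of WT replicate 2 it was 0.18.

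miR-500-3p was the arm measured best. Its probe A_54_P4410 had 10 spots per array, and all 80 were well above background. The coefficient of variation on an array was 7.2% to 16.2% over all 10 spots, and 3.23% to 12.1% over those kept after 8 outlier-marked spots on 5 arrays were dropped. The kept spots averaged 54.4, 53.7, 55 and 49.7 units on the WT arrays, 56.2 and 46.5 on the MT arrays, and 72.5 and 59.0 on the control arrays. Before scaling, the control arrays thus read above every WT and MT array.

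After scaling the order turned. The scaled signal was 57.6, 59.1, 50.5 and 58.2 units on the WT arrays, 65.9 and 55.8 on the MT arrays, and 47.9 and 50.5 on the control arrays. Group means were 5.81 ± 0.07 in WT, 5.92 ± 0.17 in MT and 5.62 ± 0.05 in control on the log2 scale (SD, n = 2, each WT value a mean of 2 arrays). Both MT arrays lay above both control arrays, as was the case for 40.8% of the 142 miRNAs tested (26.8% lay wholly below). The lowest WT array and the higher control array met at 50.5, while 29.6% of the 142 had every WT array above control and 22.5% every one below. The WT arrays overlapped the MT arrays, as for most miRNAs, of which 4.23% were wholly higher in WT and 10.6% wholly lower.

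In limma's moderated test over all 142 miRNAs, miR-500-3p passed in no comparison. MT minus control was 0.30 ± 0.16 on the log2 scale (SE, 95% interval -0.07 to 0.68, adjusted p = 0.192). WT minus control was 0.19 ± 0.16 (SE, -0.18 to 0.57, adjusted p = 0.419). WT minus MT was -0.11 ± 0.16 (SE, -0.48 to 0.27, adjusted p = 0.99). Each of the 3 intervals included 0.

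The adjusted test called 0 of 142 miRNAs (0%) in each comparison. Before adjustment limma gave p under 0.05 for 40 miRNAs (28.2%) between WT and control, for 56 (39.4%) between MT and control and for 0 between WT and MT. These counts were 3 for WT and 26 for MT when all mouse probes set the scale. On that scale 29.6% of the 142 were higher in WT than in control and 10.6% higher in MT, against 61.3% and 57% before. The 26 are thus not read as a part of the 56. miR-500-3p was not among the 40 or the 56, with unadjusted p = 0.263, 0.0986 and 0.514. The median difference over all 142 miRNAs was 0.12, 0.13 and -0.04 in the same order, and 99, 86 and 70 of them differed by more than miR-500-3p did, so its differences lay well inside the range of the array.

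The sign of these differences depended on the scaling, and that of WT minus MT also on the probes and replicates used. With the 75th percentile taken over all mouse probes, WT minus control was -0.17, MT minus control was -0.41 and WT minus MT was 0.25, and the medians of all miRNAs moved to -0.19, -0.52 and 0.30. The median of all miRNAs moved in the same direction as miR-500-3p in each comparison. This scale was also set by undetected miRNAs, as 449 of the 611 mouse miRNAs were detected on no array. The 95th percentile of the negative controls was 33.1 units on MT replicate 1 and 23.6 on the first array of WT replicate 1. On the other arrays it was 9.51 to 12.4. Whether signal near background turned the sign was not tested. The second probe, A_54_P2945, was not detected on either array of WT replicate 1 or on the array of MT replicate 1. Its level in control replicate 1, 4.12, lay next to the floor. For these reasons its differences are only described. They were 0.40 for WT minus control, 0.22 for MT minus control and 0.17 for WT minus MT. The last had the other sign than the -0.11 of A_54_P4410. MT arrays were in slide columns 1 and 2 and control arrays in columns 3 and 4, and only the WT group had a replicate on each side. With slide side added to the limma fit, MT minus control was 0.20 for miR-500-3p (adjusted p = 0.917), and the number of miRNAs with p under 0.05 before adjustment was 9 between WT and control and 3 between MT and control. Slide side was estimated from the difference between the 2 WT replicates alone, so the 2 cannot be told apart. The added term also used a residual degree of freedom, so the lower counts do not show an effect of slide side.

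**Figure D5:**
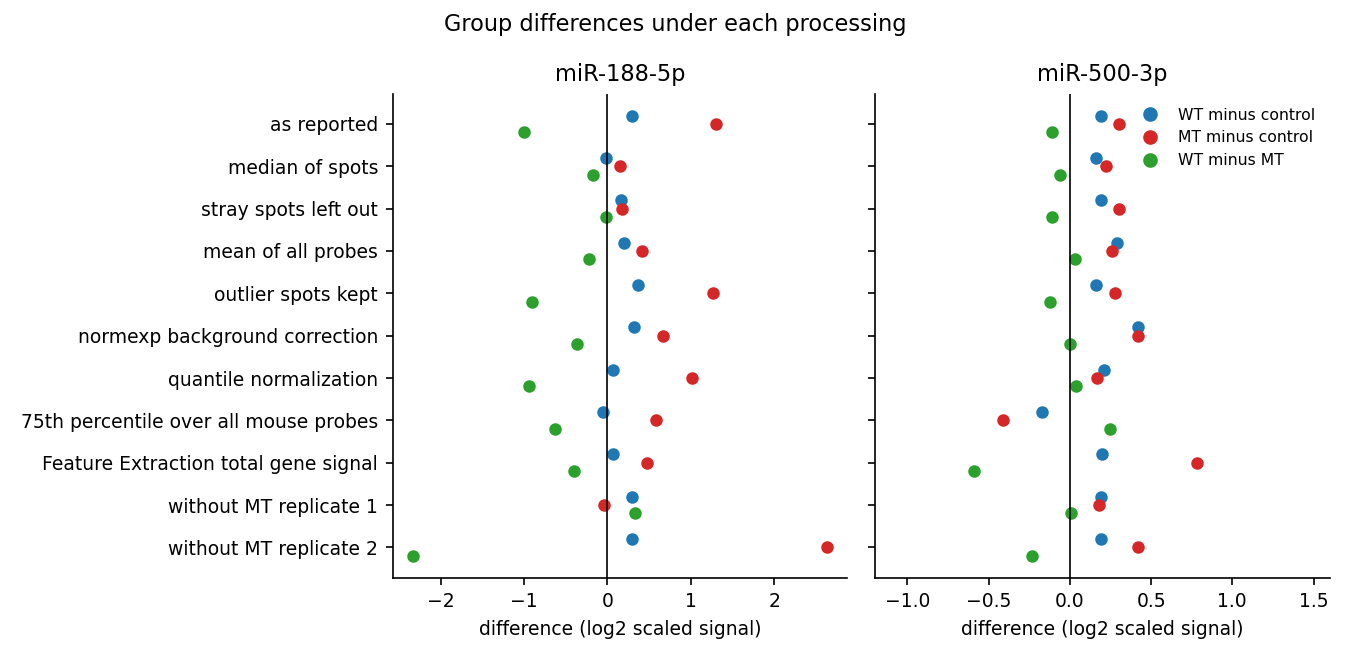
Differences between group means (log2 scaled signal) of miR-188-5p and miR-500-3p, 1 row per way of processing, for WT minus control, MT minus control and WT minus MT. The difference of MT from control for miR-188-5p is 1.30 as reported, 0.15 with the median of spots and 2.63 without MT replicate 2. For miR-500-3p each sign turns when all mouse probes, also those of undetected miRNAs, set the scale. That of WT minus MT turns also with quantile normalization, with the mean of all probes and without MT replicate 1.

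The patterns of the 2 detected arms over the 6 RNA samples were compared. After each miRNA was centred on its own mean, the root mean square difference between miR-188-5p and miR-500-3p was 0.85 on the log2 scale. Among the 141 other miRNAs tested this placed miR-188-5p last in likeness to miR-500-3p, and miR-500-3p at rank 32 in likeness to miR-188-5p, whose median difference from all others was 0.97. With the stray spots left out the difference was 0.26, and the ranks were 82 and 13. The last place thus rested on those spots. From the side of miR-188-5p its cluster mate was nearer than the median miRNA both with and without them. From the side of miR-500-3p, miR-188-5p was farther than the median of 0.23 both with and without them. The measure was not scaled to the spread of each miRNA, and the cluster was chosen by the replicate difference of miR-188-5p. These ranks are therefore a description and say nothing on a shared pattern of the cluster.

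The miRNAs most like miR-500-3p were miR-378-3p at 0.08, let-7e-5p at 0.09 and let-7a-5p at 0.10, where the median over all was 0.23. The same 3 were nearest with the stray spots left out. Those most like miR-188-5p were miR-680 at 0.63, miR-450b-3p at 0.63 and miR-669n at 0.64, where the median was 0.97. All 3 were highest in MT replicate 1, at 5.36, 5.38 and 5.51. miR-680 and miR-669n stood at the floor of 4.08 in control replicate 1, and miR-450b-3p in WT replicate 1 and MT replicate 2. With the stray spots left out the nearest were miR-689_v15.0, miR-1906 and miR-135a-1-3p, at 0.11 to 0.14 with a median of 0.39, so none of the first 3 remained.

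Other miRNAs of chromosome X served as a comparison for the cluster. Of 69 X-linked mouse miRNAs on the array outside the cluster, 17 were detected on some array and 16 were tested. limma called 0 of the 16 in every comparison. For WT minus control, MT minus control and WT minus MT, 1, 3 and 0 of them had p under 0.05 before adjustment (6.25%, 18.8% and 0%, against 28.2%, 39.4% and 0% of all 142). Their median differences were -0.03, 0.12 and 0.04, against 0.12, 0.13 and -0.04 over all 142.

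A list of miRNAs of bone and fat cell fate, the setting in which miR-188 is known, was treated in the same way. Of its 37 array entries 21 were detected on some array and 20 were tested, with 0 called. In limma 4, 5 and 0 of the 20 had p under 0.05 before adjustment (20%, 25% and 0%, against 28.2%, 39.4% and 0% of all 142). Its median differences were 0.05, -0.05 and 0.01. Neither list held a called miRNA, in a test that called none of the 142.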

How the data were processed

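miRNAs of C3H10T1/2 cells were measured on 8 one-colour Agilent arrays from 6 RNA samples. The authors deposited the intensity of each spot as processed by Feature Extraction (version 10.7.1.1 in the file headers, 9.1 in the submitters' processing notes; header build mm9), with marks for outliers and for spots well above background, and a table of background-subtracted intensity, not used for tests, that matched the scanner values to within 0.5 units. No normalization between arrays is given in the sources used here.

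Control spots and outlier-marked spots were removed, and the remaining spots gave a mean per probe. Signals of an array were divided by its 75th percentile over the 174 probes that every array detected, a floor of 16.9 scaled units was set and log2 was taken. The probe with the highest mean stood for a miRNA, and the 2 arrays of a WT sample were averaged. The 142 mouse miRNAs that every array of some group detected were fitted together in limma version 3.58.1 (R version 4.3.3; lmFit and eBayes, two-sided, Benjamini-Hochberg, threshold 0.05) without a replicate block. The fit was tested on simulated data. Figures were drawn with matplotlib.

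Members and lists were chosen with earlier results of these data known. Named miRNAs were the 9 arms, those with the same seed, and the 3 tested miRNAs nearest to each tested member by root mean square difference. Mature sequences were matched by name for 478 of 611 mouse miRNAs. Alternatives covered scaling, the signal column, background correction, floor, filter, probes, outlier and stray spots, technical arrays, blocks, slide side and left-out replicates. Leaving out stray spots and taking the median of spots were chosen after seeing the data.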

Additional observations from a re-analysis of the deposited data

How the results depend on the processing

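Under the alternatives, miR-500-3p passed the test in no comparison, with adjusted p of 0.0781 to 1 for WT against control, 0.0592 to 0.917 for MT against control and 0.855 to 1 for WT against MT. Its sign turned with scaling over all mouse probes, a scale that undetected miRNAs also set, to -0.17, -0.41 and 0.25 in that order. For WT against MT it turned also under quantile normalization (0.04), the mean of all probes (0.03) and without MT replicate 1 (0.01). The number of miRNAs called against control moved from 0 of 142 to 22 (WT) and 40 (MT) of 142 under normexp. It was 3 and 3 of 166 with the total gene signal, and 1 and 1 of 142 with a lower floor. For MT it was 1 of 611 with no filter and 29 of 103 among miRNAs detected on all 8 arrays. For WT it was 1 with only the 2 groups in the fit. The cause was not tested. Counts at an unadjusted p under 0.05 in limma were 40 (WT) and 56 (MT) of 142 against control. They were 3 and 26 of 142 with scaling over all mouse probes, and 12 and 24 of 166 with the total gene signal. With scaling over all mouse probes 10.6% of miRNAs were higher in MT than in control, against 57% with the scale used above. With slide side added to the fit the counts were 9 and 3, but that term rests on the 2 WT replicates alone.

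For miR-188-5p the difference of MT from control was 0.15 with the median of spots. That of WT from control turned to -0.05 with scaling over all mouse probes and -0.02 with the median of spots, and that of WT from MT became -0.17 with the median of spots and -0.22 with the mean of all probes. Its MT replicate difference of 2.67 became 1.1 under normexp, 0.59 with the median of spots, 0.79 with stray spots left out, and 0.29, 0.33 and 0.79 on A_54_P2362, A_54_P2363 and A_54_P2364 alone. Its WT replicate difference became 0.28 under normexp, -0.24 on A_54_P2362 and 0.23 on A_54_P2363, and its control replicate difference -0.04 under normexp.

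When each replicate was left out in turn, called miRNAs numbered 0 to 1 between WT and control, 0 to 30 between MT and control (the 30 with MT replicate 2 left out) and 0 to 1 between WT and MT. The differences of miR-188-5p ranged from -0.08 to 0.67, -0.04 to 2.63 and -2.33 to 0.33, and those of miR-500-3p from 0.14 to 0.25, 0.18 to 0.42 and -0.23 to 0.01. A group left with 1 sample was assumed to vary like the others.

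Whether replicate numbers paired the samples could not be told. The correlations of deviations were 0.02, 0.39 and -0.46 for WT and MT, WT and control, and MT and control. With 2 samples per group, each rests on a single replicate difference per group. With the number as a replicate block miR-500-3p gave 0.19, 0.30 and -0.11 with adjusted p = 0.415, 0.199 and 0.974 in limma, and with the crossed pairing of MT and control adjusted p = 0.358, 0.168 and 0.98. The signal over background limited the 7 undetected arms in every setting but the total gene signal, which added miR-532-5p on 1 array.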

Other observations

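Feature Extraction's total gene signal, given once per miRNA, differed from the sum of the probe totals for 3 of the 17 pairs of a cluster arm and an array that it called detected, by over 2% and 0.05 units. Thus for miR-500-3p on the array of MT replicate 1 the total gene signal was 120 units and the probe totals came to 49.5. For miR-188-5p on the first array of WT replicate 1 the values were 29.2 and 35.8, and for miR-532-5p on the array of control replicate 1 the total was 79.4 and the probes had 1.78 and 8.93. Over all mouse miRNAs called detected, the number with such a gap was 42 to 55 per array. With the total gene signal the difference of MT from control was 0.78 on the log2 scale for miR-500-3p and 0.47 for miR-188-5p, against 0.30 and 1.30 from the spots, so the order of the 2 arms turned.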
